A study of Mus musculus with 20 samples.

Results

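Type I interferon-stimulated genes are the genes that cells switch on when interferon-alpha or interferon-beta binds its receptor. A total of 38 such genes were chosen by name, and all 38 were found among the 22068 gene symbols of the count table. They were followed across 5 groups of sorted mouse CD4 T cells. All 38 also passed the filter on low counts, which left 13309 genes for testing.

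Type I interferons bind a receptor made of IFNAR1 and IFNAR2, and the kinases JAK1 and TYK2 then phosphorylate STAT proteins, among them STAT2. Together with IRF9 these form a transcription factor complex that binds a DNA element called the interferon-stimulated response element (ISRE). Its targets encode proteins that sense viral nucleic acid, block viral translation and assembly, or feed back on the signal, as USP18 does. Low, continuous interferon signalling is known to keep some of these genes transcribed in mice without infection, and naive T cells are among the cells in which such basal transcription has been described.

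The cells came from spleen and lymph nodes of C57BL/6 mice of 8 to 12 weeks that carried a Foxp3-GFP reporter, in which cells expressing Foxp3 fluoresce green. Naive CD4 T cells were GFP-negative with low CD44, and CD5hi and CD5lo stand for the 15% of them with the most and the 15% with the least surface CD5, a receptor whose level follows the strength of contact with self peptides on MHC. Rested CD5hi and rested CD5lo cells were kept for 22 hours in dissociated culture with interleukin 7 at 10 ng/mL before lysis, so that they lost contact with self peptide-MHC. Treg (regulatory T cells, GFP-positive), fresh CD5hi and fresh CD5lo cells were lysed directly after the sort. Each group has 4 libraries of polyadenylated RNA, and the labels call them biological replicates. Each rested group differs from its fresh one in the loss of cell contact, in time in culture, and in added interleukin 7, and these cannot be told apart.

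Libraries held 38211406 to 64477566 counted reads. Levels are given as CPM, counts scaled to a common library size with effective sizes from the trimmed mean of M-values (TMM), in replicates 1 to 4 in that order, and means carry the SD with n = 4. CPM is not divided by gene length, so levels were compared between groups and not between genes. Cd5 and Foxp3 went with the labels: Cd5 averaged 461 ± 19.3 CPM in rested CD5hi and 94.5 ± 6.49 CPM in rested CD5lo cells, and 982 ± 61.3 CPM in fresh CD5hi and 148 ± 9.83 CPM in fresh CD5lo cells. Foxp3 averaged 722 ± 38 CPM in Treg and at most 28.6 ± 2.77 CPM in a naive group. One feature of the libraries went against the labels, which give pooled males and females. All 8 fresh libraries and replicate 3 of each other group carried Y-linked reads, at 326 to 405 CPM. The other 9 carried Xist instead, at 755 to 1736 CPM.

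Before the values, the promoters of 6 members are shown, because some hold the letters of the element that the complex of STAT2 and IRF9 binds and others do not. Rsad2, Isg15, Ifit3 and Ifit1 were much lower in rested cells, whereas Ifit2 and Ifi35 were not. These 6 are picked examples, and other members went differently. Ifi44, Oasl2, Cmpk2, Isg20 and Oasl1 held no such letters in their windows and were also much lower. Trim30a held them and fell by a small amount. Of the members with a window, all 11 with the letters and 13 of the 17 without them were called as lower in each CD5 group. Each line gives the 250 bases before the start of the gene in its own direction, from RefSeq on build GRCm38.p6, with matches to the ISRE letters GAAANNGAAA on either strand in capitals. The counts themselves were made on another build, mm9, and no position here comes from the count table.
Rsad2, chr12:26456453-26456702, minus strand: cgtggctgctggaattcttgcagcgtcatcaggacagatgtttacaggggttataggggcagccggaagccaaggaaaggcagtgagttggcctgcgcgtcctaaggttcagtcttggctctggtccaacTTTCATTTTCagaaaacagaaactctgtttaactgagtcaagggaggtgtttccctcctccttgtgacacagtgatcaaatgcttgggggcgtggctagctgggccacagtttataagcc
Isg15, chr4:156200819-156201068, minus strand: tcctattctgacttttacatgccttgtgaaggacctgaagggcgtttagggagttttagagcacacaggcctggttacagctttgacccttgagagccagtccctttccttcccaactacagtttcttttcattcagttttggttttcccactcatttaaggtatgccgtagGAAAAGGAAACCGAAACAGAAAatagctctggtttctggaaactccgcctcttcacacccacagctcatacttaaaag
Ifit3, chr19:34583279-34583528, plus strand: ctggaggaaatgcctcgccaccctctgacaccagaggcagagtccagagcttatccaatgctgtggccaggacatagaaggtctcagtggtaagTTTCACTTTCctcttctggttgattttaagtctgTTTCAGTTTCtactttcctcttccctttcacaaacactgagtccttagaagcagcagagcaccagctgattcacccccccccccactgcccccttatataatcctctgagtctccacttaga
Ifit1, chr19:34640639-34640888, plus strand: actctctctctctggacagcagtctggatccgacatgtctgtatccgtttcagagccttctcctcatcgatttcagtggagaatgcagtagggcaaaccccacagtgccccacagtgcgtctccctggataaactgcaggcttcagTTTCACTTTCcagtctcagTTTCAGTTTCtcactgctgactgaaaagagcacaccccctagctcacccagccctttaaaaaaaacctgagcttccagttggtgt
Ifit2, chr19:34550444-34550693, plus strand: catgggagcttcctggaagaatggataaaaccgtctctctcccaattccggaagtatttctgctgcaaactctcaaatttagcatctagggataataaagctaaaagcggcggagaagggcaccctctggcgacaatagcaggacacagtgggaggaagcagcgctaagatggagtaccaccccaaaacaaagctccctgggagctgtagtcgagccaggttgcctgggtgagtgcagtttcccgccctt
Ifi35, chr11:101448162-101448411, plus strand: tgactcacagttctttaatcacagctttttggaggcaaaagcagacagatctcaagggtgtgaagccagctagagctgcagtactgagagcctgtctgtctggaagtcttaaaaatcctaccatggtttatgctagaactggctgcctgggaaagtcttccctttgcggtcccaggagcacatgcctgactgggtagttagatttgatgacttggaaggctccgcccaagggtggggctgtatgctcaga
Isg15 held 3 overlapping matches, Ifit3 and Ifit1 held 2 each and Rsad2 held 1. The first match began 120 bases before the start in Rsad2, 78 in Isg15, 156 in Ifit3 and 104 in Ifit1. The bases just after the start occurred in a GENCODE transcript of the same gene for all of the 6 except Ifit3. The start of Ifit3 and its distance are thus less sure. Ifit2 has 2 windows in the table and neither held a match. A match describes the letters and is neither a site shown to be bound nor a cause, and no match says only that these letters are not in this window.

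Most members shared a pattern over the 5 groups, drawn in the heat map of all libraries. The mean log2 CPM over the 38 members was 4.36 ± 0.07 in rested CD5hi, 4.46 ± 0.11 in rested CD5lo, 5.95 ± 0.10 in Treg, 5.92 ± 0.08 in fresh CD5hi and 5.84 ± 0.05 in fresh CD5lo cells (SD, n = 4 libraries each). The rested libraries ran from 4.27 to 4.61 and the 12 others from 5.76 to 6.09, without overlap. The highest mean level of a member lay in Treg for 17, in fresh CD5hi for 12, in fresh CD5lo for 6 and in rested CD5lo for 3. The lowest lay in rested CD5hi for 25 members and in rested CD5lo for 8.

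**Figure D1:**
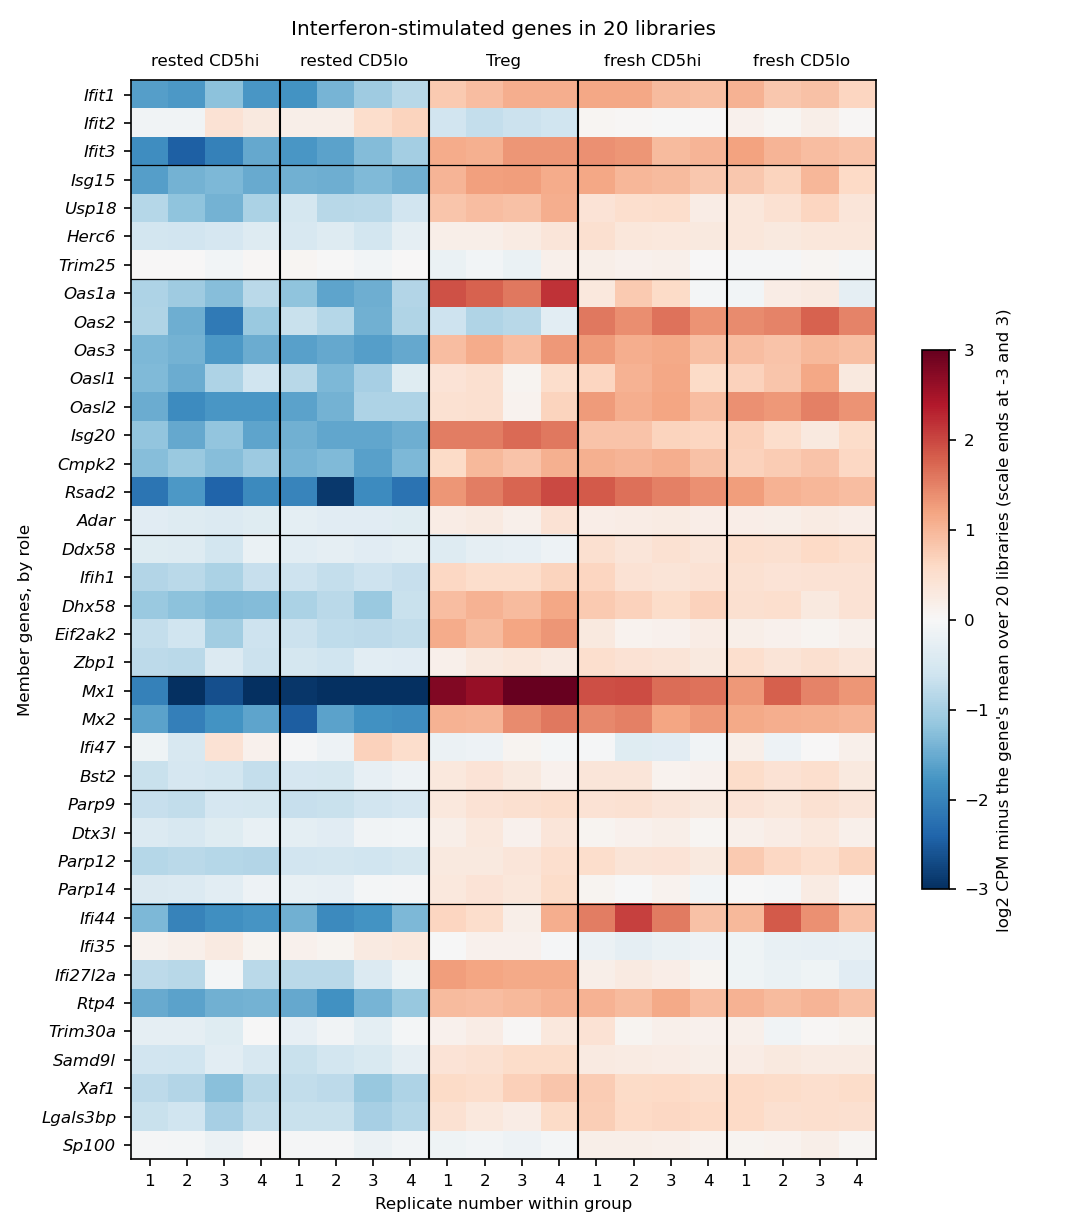
Each row is a member, grouped by role, and each column is a library, ordered by group. Colour gives the log2 CPM minus the gene's mean over the 20 libraries, with the scale ending at -3 and 3, and the 8 rested libraries are low for most rows while Treg and fresh libraries are high.

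Most interferon-stimulated genes fell during the 22 hours of rest. In CD5hi cells 34 of the 38 members fell and 1 rose relative to fresh cells, and in CD5lo cells 33 fell and 2 rose (edgeR quasi-likelihood test, adjusted p under 0.05). Resting moved much of the transcriptome: 52.4% of all tested genes were called in CD5hi cells, 26.2% as higher and 26.2% as lower, and 54.3% in CD5lo cells, 26.9% as higher and 27.3% as lower. The members' median log2 fold change was -1.34 in CD5hi and -1.17 in CD5lo cells, beside 0.00 and -0.01 over all tested genes. A called fall of at least 2-fold was found for 23 members in CD5hi and 21 in CD5lo cells, against 6.6% and 7.13% of all genes. The same 33 members fell in both, and the share of all genes that fell in both was not counted. These comparisons share no library, but both come from the same fit over all 5 groups. For 31 members every one of the 8 rested libraries lay below every one of the 8 fresh libraries, as for 14.4% of all genes. In bulk RNA, fewer cells of a type and less RNA per cell cannot be told apart.

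The interferon-induced tetratricopeptide proteins (IFIT) bind viral RNA and block its translation. Ifit1 had 7.90, 7.62, 10.7 and 7.44 CPM in rested CD5hi libraries against 56.4, 55.7, 48.4 and 46.9 CPM in fresh CD5hi libraries, a log2 fold change of -2.62 (SE 0.16, edgeR adjusted p = 1.08e-11). In CD5lo cells it had 7.25, 9.48, 11.9 and 14.2 CPM when rested against 51.8, 44.1, 46.1 and 39.4 CPM when fresh, a log2 fold change of -2.08 (SE 0.15, edgeR adjusted p = 3.03e-10). Every rested library was below every fresh one, and rested CD5hi replicate 3 was high within its group. Ifit3 had 3.84, 2.55, 3.41 and 4.85 CPM in rested and 36.6, 35.5, 27.0 and 28.7 CPM in fresh CD5hi libraries, a log2 fold change of -3.13 (SE 0.17, edgeR adjusted p = 1.72e-12). In CD5lo cells Ifit3 had 4.16, 4.62, 5.67 and 6.86 CPM when rested and 32.4, 28.6, 26.9 and 25.4 CPM when fresh, a change of -2.40 (SE 0.16, edgeR adjusted p = 5.93e-11), again without overlap. Reads of Ifit3 can also come from its near-identical copy Ifit3b, and how the authors' counting shared them is not given in the sources used here.

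Isg15 encodes a ubiquitin-like protein that is attached to viral and host proteins, Herc6 encodes the main mouse ligase for it, and Usp18 encodes the protease that removes it and also dampens the receptor. Isg15 had 4.03, 4.75, 5.05 and 4.45 CPM in rested CD5hi libraries against 28.5, 25.5, 24.9 and 22.6 CPM in fresh ones, and 4.70, 4.64, 5.13 and 4.72 CPM in rested CD5lo libraries against 22.3, 20.3, 25.7 and 19.4 CPM in fresh ones. The rested libraries were tightly grouped and far below all fresh ones, with log2 fold changes of -2.47 (SE 0.10) and -2.19 (SE 0.10). Usp18 averaged 14.5 ± 2.53 CPM in rested and 41.2 ± 3.95 CPM in fresh CD5hi cells (log2 fold change -1.51, SE 0.11), and 19.3 ± 2.09 CPM in rested and 42.3 ± 4.35 CPM in fresh CD5lo cells (log2 fold change -1.13, SE 0.11). Herc6 fell less, with log2 fold changes of -0.86 in CD5hi and -0.75 in CD5lo cells. Trim25, a ubiquitin ligase that acts on the RNA sensor RIG-I, was not called, at log2 fold changes of -0.12 (SE 0.06) and 0.01 (SE 0.06).

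All 9 members of the group of oligoadenylate synthetases, nucleases and nucleotide enzymes fell in both CD5 groups, and 8 of the 9 fell by at least 2-fold in each. Oligoadenylate synthetases make the messenger that activates RNase L. Rsad2 encodes viperin, which makes a chain-terminating nucleotide, and Cmpk2, its neighbour on the chromosome, encodes a nucleotide kinase. Rsad2 had 0.875, 1.23, 0.745 and 1.07 CPM in rested and 14.8, 13.0, 11.9 and 10.7 CPM in fresh CD5hi libraries, a log2 fold change of -3.67 (SE 0.19, edgeR adjusted p = 1.05e-12). In CD5lo libraries Rsad2 had 1.01, 0.523, 1.09 and 0.859 CPM when rested and 9.82, 8.57, 8.2 and 7.85 CPM when fresh, a log2 fold change of -3.31 (SE 0.19, edgeR adjusted p = 6.12e-12). No fresh library came near the rested ones. The log2 fold changes of Cmpk2 were -2.21 (SE 0.10) in CD5hi and -2.16 (SE 0.10) in CD5lo cells.

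Oasl2 had 4.35, 3.28, 3.64 and 3.62 CPM in rested against 29.8, 26.0, 27.9 and 23.4 CPM in fresh CD5hi libraries, and 4.00, 4.57, 6.41 and 6.40 CPM in rested against 31.6, 30.2, 34.7 and 31.2 CPM in fresh CD5lo libraries. The log2 fold changes were -2.85 (SE 0.14, edgeR adjusted p = 5.89e-13) and -2.58 (SE 0.14, edgeR adjusted p = 1.73e-12). Oas3 had 10.2, 9.63, 7.88 and 9.27 CPM in rested and 62.8, 55.1, 56.6 and 48.8 CPM in fresh CD5hi libraries (log2 fold change -2.60, SE 0.09), and 8.34, 8.92, 8.21 and 8.93 CPM in rested and 49.4, 47.1, 50.6 and 48.2 CPM in fresh CD5lo libraries (log2 fold change -2.50, SE 0.09). Neither gene had overlapping groups. Oas2 changed by -2.83 (SE 0.20) and -2.48 (SE 0.19), and within rested CD5hi libraries it varied between 7.81 and 18.5 CPM. Isg20, an exonuclease of single-stranded RNA, changed by -2.14 (SE 0.10) in CD5hi and -2.04 (SE 0.10) in CD5lo cells, and Oas1a, whose reads can be shared with its close copies such as Oas1g, by -1.45 (SE 0.18) and -1.30 (SE 0.18). Oasl1 changed by -1.93 (SE 0.22) and -1.61 (SE 0.21). Adar, an RNA-editing enzyme that most cells make at a steady level, fell least of the group, with log2 fold changes of -0.60 and -0.53.

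All 5 nucleic acid sensors fell in both CD5 groups. Dhx58, which encodes LGP2, a regulator of the other RNA helicase sensors, had 9.39, 8.65, 8.2 and 8.27 CPM in rested and 35.0, 32.8, 30.1 and 32.9 CPM in fresh CD5hi libraries, a log2 fold change of -1.92 (SE 0.09, edgeR adjusted p = 8.54e-14). In CD5lo cells it had 10.6, 11.7, 9.35 and 12.9 CPM when rested and 28.5, 28.8, 25.1 and 27.8 CPM when fresh, a change of -1.30 (SE 0.08, edgeR adjusted p = 3.62e-11). Ifih1, which encodes the long-RNA sensor MDA5, changed by -1.30 (SE 0.06) in CD5hi and -1.09 (SE 0.06) in CD5lo cells. Ddx58, which encodes RIG-I, changed by -0.78 (SE 0.06) and -0.83 (SE 0.06). Eif2ak2, the kinase PKR that halts translation, changed by -0.93 (SE 0.08) and -0.87 (SE 0.08), and Zbp1, a sensor of Z-form nucleic acid, by -1.06 (SE 0.08) and -0.87 (SE 0.08). The groups of these 5 genes did not overlap.

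The dynamin-like GTPases Mx1 and Mx2 trap viral nucleoproteins. Mx1 had 0.610, 0.141, 0.383 and 0.179 CPM in rested CD5hi libraries against 10.0, 10.2, 8.41 and 8.07 CPM in fresh ones, a log2 fold change of -4.85 (SE 0.30, edgeR adjusted p = 1.59e-11). In rested CD5lo libraries it had 0.309, 0.136, 0.247 and 0.236 CPM against 6.47, 9.07, 7.30 and 6.53 CPM in fresh ones, a change of -4.96 (SE 0.31, edgeR adjusted p = 2.00e-11). Mx1 was thus nearly undetected after rest, with 56 counts summed over the rested CD5hi libraries and 45 over the rested CD5lo libraries. C57BL/6 mice are known to carry a defective Mx1 allele, and the counts say nothing of protein. Mx2 had 1.11, 0.804, 0.979 and 1.14 CPM in rested and 9.47, 10.0, 8.00 and 8.69 CPM in fresh CD5hi libraries (log2 fold change -3.17, SE 0.17), and 0.597, 1.11, 0.962 and 0.927 CPM in rested and 7.76, 7.52, 7.34 and 7.08 CPM in fresh CD5lo libraries (log2 fold change -3.05, SE 0.17). Rested and fresh libraries overlapped for neither gene. Mx1 and Mx2 are similar enough that some reads may be shared. Bst2, the tetherin that holds budding virions on the cell, fell less, with log2 fold changes of -0.85 and -0.80.

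The PARP proteins here are ADP-ribosyltransferases, and Dtx3l is the ubiquitin ligase partner of PARP9. All 4 genes fell in both CD5 groups. Parp12 had the largest change, at -1.26 (SE 0.07) in CD5hi and -1.22 (SE 0.07) in CD5lo cells, followed by Parp9 at -1.0 (SE 0.06) and -0.99 (SE 0.06). Dtx3l changed by -0.47 (SE 0.07) and -0.41 (SE 0.07). Parp14 changed least, by -0.34 (SE 0.08, edgeR adjusted p = 0.000808) in CD5hi and -0.19 (SE 0.08, edgeR adjusted p = 0.0374) in CD5lo cells, where its groups came close: 229, 225, 259 and 263 CPM when rested and 264, 263, 318 and 270.0 CPM when fresh. That CD5lo call was lost without rested CD5lo replicate 1 or 2 or fresh CD5lo replicate 3 (adjusted p = 0.11, 0.11 and 0.17).

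Of the 9 remaining members, 8 fell and 1 rose in CD5hi cells, and 7 fell and 1 rose in CD5lo cells. Ifi44, a cytosolic protein of uncertain activity, had 1.35, 0.844, 0.958 and 1.01 CPM in rested and 10.2, 14.7, 10.4 and 6.51 CPM in fresh CD5hi libraries (log2 fold change -3.34, SE 0.28, edgeR adjusted p = 1.97e-09). In CD5lo libraries Ifi44 had 1.28, 0.910, 0.986 and 1.36 CPM when rested and 6.93, 12.7, 9.20 and 6.38 CPM when fresh (log2 fold change -2.94, SE 0.27, edgeR adjusted p = 9.62e-09), and the fresh libraries spread widely but all lay above the rested ones. Rtp4, a chaperone that in mice inhibits the kinase TBK1, changed by -2.51 (SE 0.10) and -2.42 (SE 0.10). Xaf1, a promoter of cell death, changed by -1.55 (SE 0.10) and -1.44 (SE 0.10), and the secreted galectin-binding protein gene Lgals3bp by -1.39 (SE 0.09) and -1.30 (SE 0.09). Samd9l, which slows translation and growth, changed by -0.72 (SE 0.07) and -0.73 (SE 0.07). Trim30a (-0.44 and -0.22) and the nuclear body gene Sp100 (-0.22 and -0.20) fell by small amounts. The CD5lo call on Trim30a, which has close copies in its family, was lost without rested CD5lo replicate 1 or 3 or fresh CD5lo replicate 1 or 4 (adjusted p = 0.068, 0.091, 0.093 and 0.065).

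**Figure D2:**
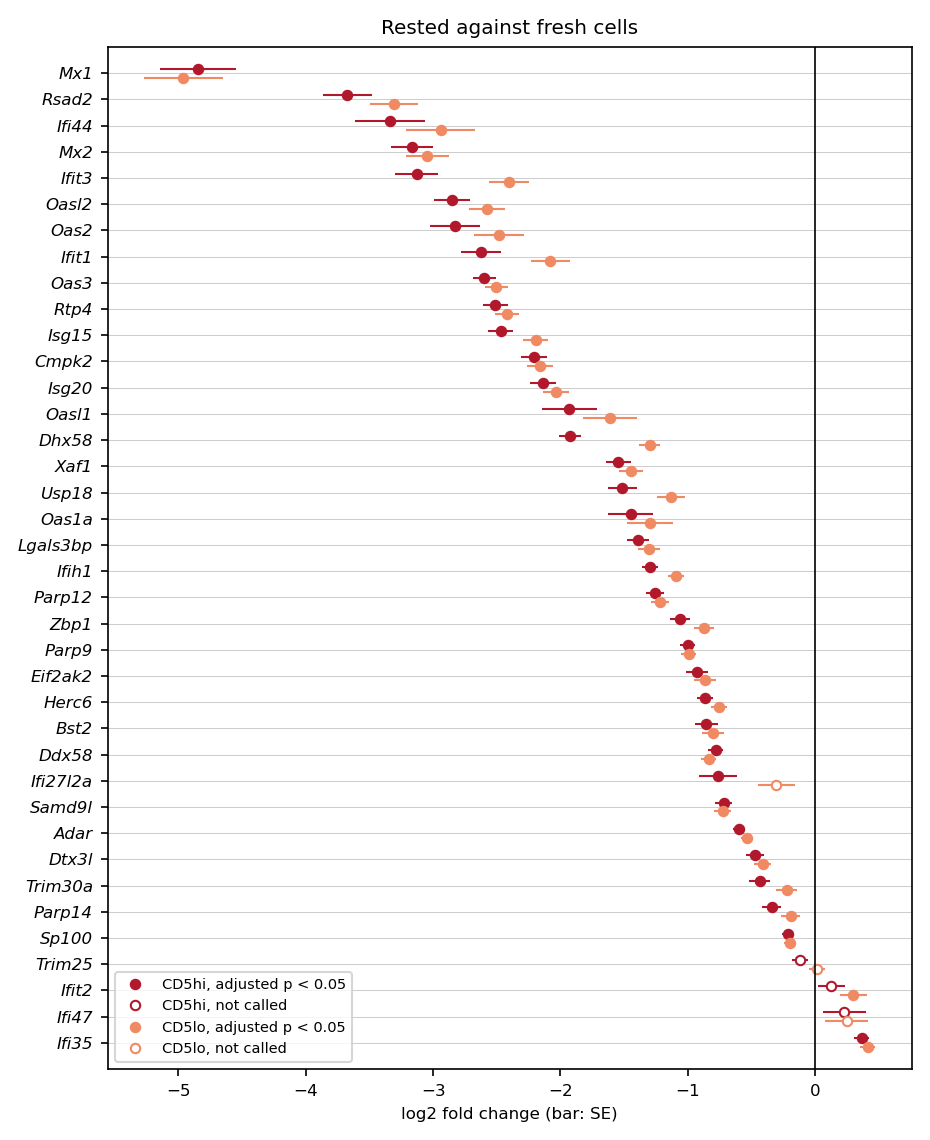
Points give the log2 fold change of rested over fresh cells for each member in CD5hi (dark) and CD5lo (light) cells, bars give the SE, and filled points passed an adjusted p of 0.05. Most members lie left of 0, with Mx1 near -5 in both CD5 groups and Ifi35 on the right in both.

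A few members did not follow. Ifi35, which forms a complex with NMI, had 73.5, 76.6, 83.3 and 73.3 CPM in rested and 60.6, 56.6, 59.7 and 61.5 CPM in fresh CD5hi libraries (log2 fold change 0.36, SE 0.06, edgeR adjusted p = 3.92e-05), and 75.4, 72.2, 82.6 and 86.1 CPM in rested and 62.3, 59.0, 57.6 and 58.9 CPM in fresh CD5lo libraries (log2 fold change 0.41, SE 0.06, edgeR adjusted p = 8.27e-06). All 8 rested libraries lay above all 8 fresh ones, which held for this member alone and for 15% of all genes. Ifit2 had 103, 103, 151 and 135 CPM in rested and 115, 114, 109.7 and 111 CPM in fresh CD5hi libraries (log2 fold change 0.13, SE 0.11, edgeR adjusted p = 0.336). In CD5lo cells it had 125, 125, 159 and 176 CPM when rested and 120.5, 115, 126 and 114 CPM when fresh (log2 fold change 0.30, SE 0.11, edgeR adjusted p = 0.0239). Rested replicates 3 and 4 were higher than replicates 1 and 2 in both CD5 groups. With rested replicates 1 and 2 alone, Ifit2 was lower in rested than in fresh CD5hi cells (log2 fold change -0.14; edgeR adjusted p = 0.027), and with replicates 3 and 4 alone it was higher (0.35; adjusted p = 9.96e-05). Its call in CD5lo cells was lost without rested CD5lo replicate 3 or 4 or fresh CD5lo replicate 2 or 4 (adjusted p = 0.073, 0.15, 0.055 and 0.059).

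Ifi47, a GTPase of the immunity-related family that interferon-gamma also induces, had 218, 172, 321 and 263 CPM in rested and 233, 185, 189 and 224 CPM in fresh CD5hi libraries, and 235, 215, 384 and 343 CPM in rested and 270.5, 214, 242 and 265 CPM in fresh CD5lo libraries. It was not called, at 0.23 (SE 0.17) and 0.25 (SE 0.17), and rested replicates 3 and 4 were again the high ones. With rested replicates 1 and 2 alone it was not called and its sign turned, at log2 fold changes of -0.11 in CD5hi and -0.15 in CD5lo cells (edgeR adjusted p = 0.449 and 0.283). With replicates 3 and 4 alone Ifi47 was called as higher, at log2 fold changes of 0.50 in CD5hi and 0.56 in CD5lo cells (edgeR adjusted p = 0.000718 and 0.000215). Ifi27l2a, which encodes a small membrane protein, had 73.3, 71.2, 122 and 72.1 CPM in rested and 144, 152, 144 and 134 CPM in fresh CD5hi libraries, a change of -0.76 (SE 0.15, edgeR adjusted p = 0.000175). In CD5lo cells it had 72.2, 72.4, 95.8 and 116 CPM when rested and 116, 110.5, 115 and 99.3 CPM when fresh and was not called (log2 fold change -0.31, SE 0.15, edgeR adjusted p = 0.081). Without rested CD5lo replicate 4 the CD5lo change was -0.46 (adjusted p = 0.012). Its reads may be shared with the neighbouring copy Ifi27l2b.

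**Figure D3:**
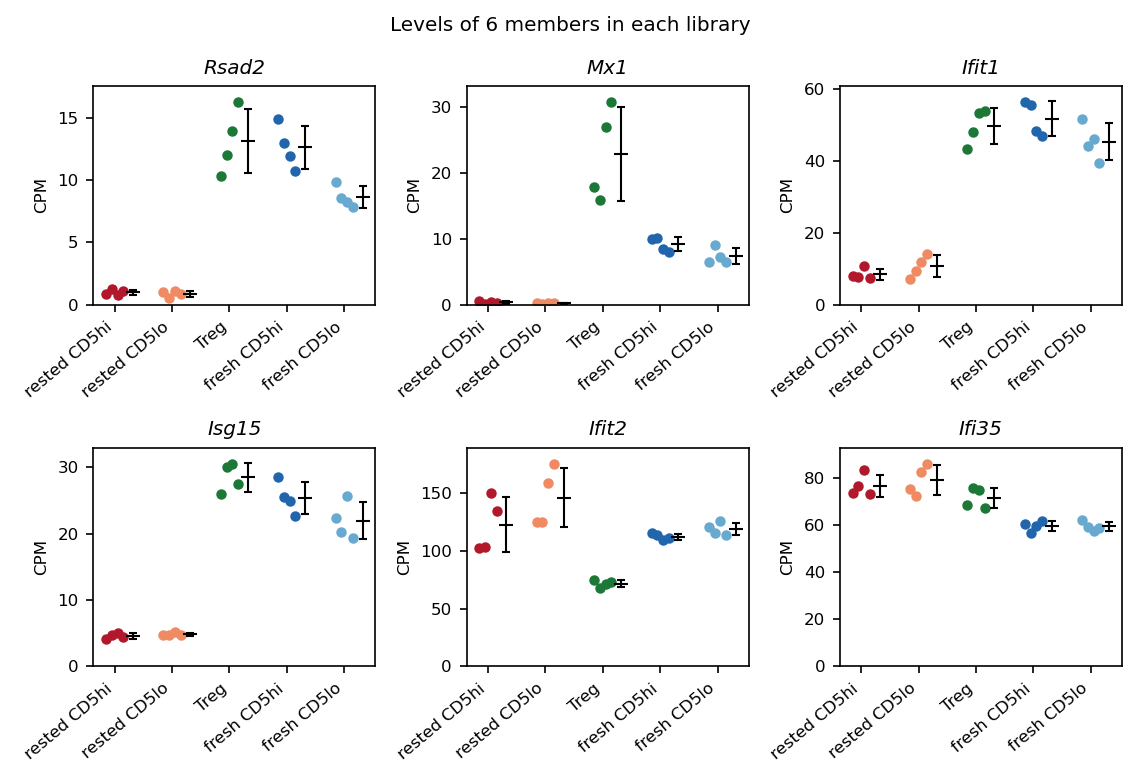
Each point is a library and each panel a gene, with CPM on a linear axis from 0 and the groups from rested CD5hi to fresh CD5lo. Black bars give mean and SD (n = 4). Rsad2, Mx1, Ifit1 and Isg15 are low in both rested groups, Ifit2 is not and is lowest in Treg, and Ifi35 is highest in the rested groups.

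The sex of the libraries moved with rest, since all fresh libraries had Y-linked reads and 3 of 4 rested libraries per group had Xist. Libraries with Y-linked reads leave replicate 3 alone in each rested group, so only effect sizes are given for them. The members' median log2 fold change among them was -1.51 in CD5hi and -1.25 in CD5lo cells. Parp14 changed by -0.10 in CD5lo cells, Ifi47 by 0.64 in each CD5 group, and Ifit2 by 0.44 in CD5hi cells. Replicate 3 was the highest rested library for Ifi47 in both CD5 groups and for Ifit2 in CD5hi cells. In a fit with a term for libraries with Xist, 35 members fell and 2 rose in CD5hi, and 32 and 3 in CD5lo cells. Of all 13309 genes, 3558 fell and 3494 rose in CD5hi, and 3690 and 3634 in CD5lo cells. The members' medians were then -1.47 and -1.26. Ifi47 was called as higher in CD5hi (0.54) and CD5lo cells (0.56), and Trim25 as lower in CD5hi cells (-0.22). Parp14 lost its call in CD5lo cells (-0.19). The sort had left out cells stained for markers of B cells, dendritic cells, macrophages, NK cells and neutrophils, and transcripts of other blood cells were still found and moved with rest. Over 8 monocyte and macrophage markers, the summed level was 4.08 to 6.21 CPM in rested CD5hi and 3.83 to 6.67 CPM in rested CD5lo libraries, against 12.7 to 15.3 CPM in fresh CD5hi and 13.2 to 17.5 CPM in fresh CD5lo libraries. Csf1r, the receptor that defines macrophages, averaged 0.0677 and 0.0526 CPM in rested CD5hi and CD5lo cells and 3.21 and 4.42 CPM in fresh ones. Of those 8 markers, 5 and 4 were under 0.1 CPM on average in rested CD5hi and CD5lo cells, against 1 and 0 in fresh CD5hi and CD5lo cells, and none was at 0 in a whole group. The sum over 8 erythroid and platelet markers was 6.53 to 22.9 CPM in rested CD5hi and 6.94 to 16.5 CPM in rested CD5lo libraries, against 36.4 to 79.9 CPM in fresh CD5hi and 56.9 to 117 CPM in fresh CD5lo libraries. Among the erythroid and platelet markers Pf4 was at 0 in all rested CD5hi libraries. The 8 B cell markers summed to 5.85 to 10.5 CPM in rested CD5hi and 5.79 to 10.7 CPM in rested CD5lo libraries, against 3.95 to 6.28 CPM in fresh CD5hi and 4.40 to 5.94 CPM in fresh CD5lo libraries, and none was at 0 in a whole group. The 6 Treg markers summed to 321 to 347 CPM in rested and 110.4 to 114 CPM in fresh CD5hi libraries, and to 284 to 316 CPM in rested and 66.6 to 70.4 CPM in fresh CD5lo libraries, while Foxp3 alone was at 22.4 to 28.6 CPM on average in the 4 naive groups. The 8 dendritic cell markers summed to at most 1.53 CPM in any naive library and the 5 NK cell markers to at most 0.35 CPM. The 5 neutrophil markers found summed to 0.0426 to 2.12 CPM in rested CD5hi and 0.159 to 2.93 CPM in rested CD5lo libraries. In fresh libraries they summed to 0.142 to 0.338 CPM in CD5hi and 0.117 to 0.411 CPM in CD5lo cells, so that rested and fresh overlapped. The 2 CD8 T cell markers summed to 6.21 to 8.09 CPM in rested and 7.98 to 8.92 CPM in fresh CD5hi libraries, and to 18.5 to 22.3 CPM in rested and 28.9 to 35.0 CPM in fresh CD5lo libraries. Apart from the fit with a term for libraries with Xist, the part of sex in the fall of the members was not tested. The part of these other transcripts was not tested either.

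The resting change of most members was slightly more negative in CD5hi than in CD5lo cells, but few single genes passed the test of that difference. The difference of the 2 changes was negative for 35 of 38 members and for 49.3% of all tested genes, with a member median of -0.11 on the log2 scale. The members come from the same libraries, so the count of signs is not a test. Their mean log2 CPM per library overlapped, at 4.27 to 4.42 in rested CD5hi and 4.35 to 4.61 in rested CD5lo libraries. It ran from 5.80 to 6.00 in fresh CD5hi and from 5.76 to 5.88 in fresh CD5lo libraries. Dhx58 alone passed, at -0.62 (SE 0.12, edgeR adjusted p = 0.0136), where 0.451% of all genes were called, 0.113% as higher and 0.338% as lower. All fresh CD5hi libraries of Dhx58 were above the fresh CD5lo ones, and when rested the CD5hi libraries were the lower ones, apart from 1 pair at nearly the same level. Dhx58 lost this call with rested replicates 3 and 4 alone (log2 difference -0.69, edgeR adjusted p = 0.056). Among libraries with Y-linked reads, which leave 1 library per rested group, its log2 difference was -0.43. Replicate numbers paired the CD5hi and CD5lo libraries of each state in their deviations from the group means. With the numbers as a block within states, 357 of all genes were called, against 60 without it, and 3 members passed, namely Ifit3 (-0.72; edgeR adjusted p = 0.0038), Usp18 (-0.39; 0.012) and Dhx58.

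Between fresh CD5hi and fresh CD5lo cells the members differed by small amounts, and the number called depended on the pairing of libraries. The fit without that pairing called 2 of them. Rsad2 was higher in CD5hi cells, at 14.8, 13.0, 11.9 and 10.7 CPM against 9.82, 8.57, 8.2 and 7.85 CPM in CD5lo libraries (log2 fold change 0.55, SE 0.16, edgeR adjusted p = 0.023), and the groups did not overlap. Parp12 was lower, at 22.3, 20.2, 20.5 and 18.8 CPM in CD5hi against 26.8, 23.9, 21.9 and 24.5 CPM in CD5lo libraries (log2 fold change -0.25, SE 0.07, edgeR adjusted p = 0.0175), with overlap at 1 library of each. These 2 of 38 members stand beside 11.5% of all genes called, 6.86% as higher and 4.59% as lower, and the median member change was 0.05. The call on Rsad2 was lost without fresh CD5hi replicate 1 or 2 or fresh CD5lo replicate 2, 3 or 4 (adjusted p = 0.098, 0.060, 0.056, 0.063 and 0.078). The call on Parp12 was lost without fresh CD5hi replicate 2 or 4 or fresh CD5lo replicate 1 (0.050, 0.080 and 0.088). With the replicate block within states, 17 of the 38 members were called, a larger share than the 2780 of all 13309 genes. Of those genes 1507 were higher and 1273 lower, so that the 5 lower members lie near the share of all genes. The 12 higher in CD5hi cells then were Isg15 (log2 fold change 0.21), Trim25 (0.14), Oas1a (0.38), Oas3 (0.19), Isg20 (0.24), Cmpk2 (0.28), Rsad2, Dhx58 (0.25), Mx1 (0.32), Ifi27l2a (0.38), Trim30a (0.16) and Lgals3bp (0.13). The 5 lower were Oasl2 (-0.26), Ifi47 (-0.25), Bst2 (-0.21), Dtx3l (-0.10) and Parp12. All of these differences were under 2-fold. Markers of other T cells moved with CD5. The 2 CD8 T cell markers Cd8a and Cd8b1 summed to 7.98 to 8.92 CPM in fresh CD5hi against 28.9 to 35.0 CPM in fresh CD5lo libraries, and to 6.21 to 8.09 CPM in rested CD5hi against 18.5 to 22.3 CPM in rested CD5lo libraries. Most of each sum was Cd8b1, and Cd8a averaged under 1 CPM in these 4 groups. The 6 Treg markers summed to 110.4 to 114 CPM in fresh CD5hi against 66.6 to 70.4 CPM in fresh CD5lo libraries, and to 321 to 347 CPM in rested CD5hi against 284 to 316 CPM in rested CD5lo libraries. These sums did not overlap, and their part in the differences between CD5hi and CD5lo cells was not tested.

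Between rested CD5hi and rested CD5lo cells 4 members were lower in CD5hi cells, beside 8.2% of all genes called, 4.74% as higher and 3.46% as lower. At an unadjusted p under 0.05 by edgeR stood 14 members and 18.9% of all genes, so that most of the 14 did not pass the adjusted test. Oasl2 had 4.35, 3.28, 3.64 and 3.62 CPM in rested CD5hi against 4.00, 4.57, 6.41 and 6.40 CPM in rested CD5lo libraries (log2 fold change -0.53, SE 0.15, edgeR adjusted p = 0.0252). Usp18 had 17.1, 13.4, 11.4 and 15.9 CPM in rested CD5hi against 21.3, 17.4, 17.6 and 20.9 CPM in rested CD5lo libraries (log2 fold change -0.42, SE 0.11, edgeR adjusted p = 0.0182). Dhx58, with the values given above, changed by -0.38 (SE 0.09, edgeR adjusted p = 0.0071), and Parp12 had 8.48, 8.81, 8.52 and 8.36 CPM in rested CD5hi against 10.4, 10.5, 10.3 and 10.6 CPM in rested CD5lo libraries (log2 fold change -0.29, SE 0.07, edgeR adjusted p = 0.0119). The libraries of Usp18 and Parp12 did not overlap, and those of Oasl2 and Dhx58 did, by 1 pair each. In a fit of these groups alone all 4 calls were lost (edgeR adjusted p from 0.079 to 0.18), and 483 of all genes passed. All 4 were also lost with rested replicates 1 and 2 alone (adjusted p from 0.0678 to 0.685). The calls on Usp18 and Oasl2 were also lost without single libraries: Usp18 without rested CD5hi replicate 2 or rested CD5lo replicate 1 or 4 (0.068, 0.054 and 0.060), and Oasl2 without rested CD5hi replicate 2 or 4 or rested CD5lo replicate 3 or 4 (0.095, 0.061, 0.10 and 0.13). With the replicate block within states 14 of the 38 members passed, a larger share than the 2402 of all 13309 genes. Of those genes 1120 were higher and 1282 lower. Cmpk2 was then higher (0.23), and the 13 lower members were Ifit1 (-0.35), Ifit2 (-0.26), Ifit3 (-0.55), Usp18, Oas2 (-0.42), Oasl2, Dhx58, Zbp1 (-0.23), Ifi47 (-0.27), Bst2 (-0.26), Dtx3l (-0.17), Parp12 and Parp14 (-0.19).

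Treg held the members at about the level of fresh naive cells as a group, but single members differed in both directions. Relative to fresh CD5hi cells 10 members were higher and 9 lower in Treg, beside 54.2% of all genes called, 27.5% as higher and 26.6% as lower. Relative to fresh CD5lo cells 13 were higher and 7 lower, beside 58.5% of all genes, 29.2% as higher and 29.4% as lower. The median member change was 0.04 against fresh CD5hi and 0.12 against fresh CD5lo cells. Both comparisons use the same Treg libraries. The total called shares of the members thus lay near those of all genes. By direction, the 7 of 38 members lower against fresh CD5lo cells were a smaller share than the 29.4% of all genes.

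Oas1a had 45.2, 41.1, 36.3 and 53.7 CPM in Treg, against 15.0, 20.6, 17.8 and 11.6 CPM in fresh CD5hi and 11.4, 14.0, 14.4 and 9.88 CPM in fresh CD5lo libraries, with log2 fold changes of 1.44 (SE 0.17, edgeR adjusted p = 2.52e-07) and 1.83 (SE 0.17, edgeR adjusted p = 6.79e-09). Every Treg library was above every fresh naive one. Mx1 had 17.9, 16, 27.0 and 30.8 CPM in Treg, with replicates 3 and 4 the highest, and the fresh values given above (log2 fold changes 1.32, SE 0.21, and 1.64, SE 0.21). Ifi27l2a had 302, 286, 279 and 278 CPM in Treg, and its changes were 0.99 (SE 0.15) and 1.38 (SE 0.15). Isg20 had 32.2, 31.9, 36.2 and 33.0 CPM in Treg against 20.1, 20.2, 17.6 and 17.3 CPM in fresh CD5hi and 18.1, 15.9, 13.6 and 16.3 CPM in fresh CD5lo libraries (log2 fold changes 0.83, SE 0.09, and 1.06, SE 0.09). Eif2ak2 had 77.6, 69.5, 81.1 and 90.0 CPM in Treg against 44.1, 38.7, 39.5 and 42.1 CPM in fresh CD5hi and 40.7, 39.1, 38.2 and 39.9 CPM in fresh CD5lo libraries (log2 fold changes 0.95, SE 0.08, and 1.01, SE 0.08). Neither gene had overlapping groups. Usp18 had 54.8, 58.6, 56.8 and 65.9 CPM in Treg against 40.9, 43.6, 44.5 and 35.7 CPM in fresh CD5hi and 38.8, 42.5, 48.4 and 39.5 CPM in fresh CD5lo libraries (log2 fold changes 0.52, SE 0.11, and 0.48, SE 0.11). Parp14 (0.39 and 0.35), Dhx58 (0.35 and 0.59), Samd9l (0.26 and 0.24) and Ifi35 (0.26 and 0.27) were higher by smaller amounts. Rsad2 had 10.3, 12.0, 13.9 and 16.2 CPM in Treg, above all fresh CD5lo libraries (log2 fold change 0.61, SE 0.16) and among the fresh CD5hi ones (log2 fold change 0.06, SE 0.15). Isg15 (0.38) and Ifih1 (0.16) also passed against CD5lo cells, and their values against CD5hi cells were 0.17 and 0.12. The call on Ifih1 was lost without Treg replicate 4 or fresh CD5lo replicate 2 or 4 (adjusted p = 0.0555, 0.0665 and 0.0532).

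The largest fall in Treg was that of Oas2, at 22.4, 18.4, 19.2 and 27.7 CPM in Treg against 103, 89.8, 106 and 87.9 CPM in fresh CD5hi and 91.9, 95.7, 117 and 97.0 CPM in fresh CD5lo libraries. Its log2 fold changes were -2.14 (SE 0.19, edgeR adjusted p = 3.78e-09) and -2.19 (SE 0.19, edgeR adjusted p = 2.14e-09), so that Oas2 and Oas1a, neighbours in one gene cluster, moved in opposite directions. Oasl2 had 16.9, 17.1, 13.2 and 19.4 CPM in Treg and changed by -0.68 (SE 0.13) and -0.94 (SE 0.13). Ddx58 had 119, 129.5, 130.3 and 140.0 CPM in Treg against 215, 199, 212 and 201 CPM in fresh CD5hi and 221, 217, 234 and 221 CPM in fresh CD5lo libraries (log2 fold changes -0.67, SE 0.06, and -0.78, SE 0.06). All Treg libraries of these 3 genes were below all fresh libraries. Ifit2 had 74.8, 67.7, 71.2 and 73.2 CPM in Treg and changed by -0.65 (SE 0.11) and -0.73 (SE 0.11), whereas Ifit1 and Ifit3 were not called. Ifi44 had 5.57, 5.08, 3.98 and 7.51 CPM in Treg, overlapping with the fresh groups, and changed by -0.92 (SE 0.24, edgeR adjusted p = 0.00226) and -0.67 (SE 0.23, edgeR adjusted p = 0.0181). Its call against CD5lo cells was lost without Treg replicate 2 or 3 or fresh CD5lo replicate 2 (adjusted p = 0.051, 0.079 and 0.12). Sp100 was lower by a small amount (-0.26 and -0.21). Parp12 (-0.28) was lower against CD5lo cells. Oasl1 (-0.50), Lgals3bp (-0.24) and Trim25 (-0.19) were lower against CD5hi cells. Oasl1 lost its call without any 1 of the Treg replicates or without fresh CD5hi replicate 2 or 3 (adjusted p of 0.0556 to 0.147). Lgals3bp lost it without Treg replicate 2 or 3 or fresh CD5hi replicate 1 (0.0645 to 0.0987), and Trim25 without Treg replicate 1 or 3 (0.0795 and 0.0799).

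**Figure D4:**
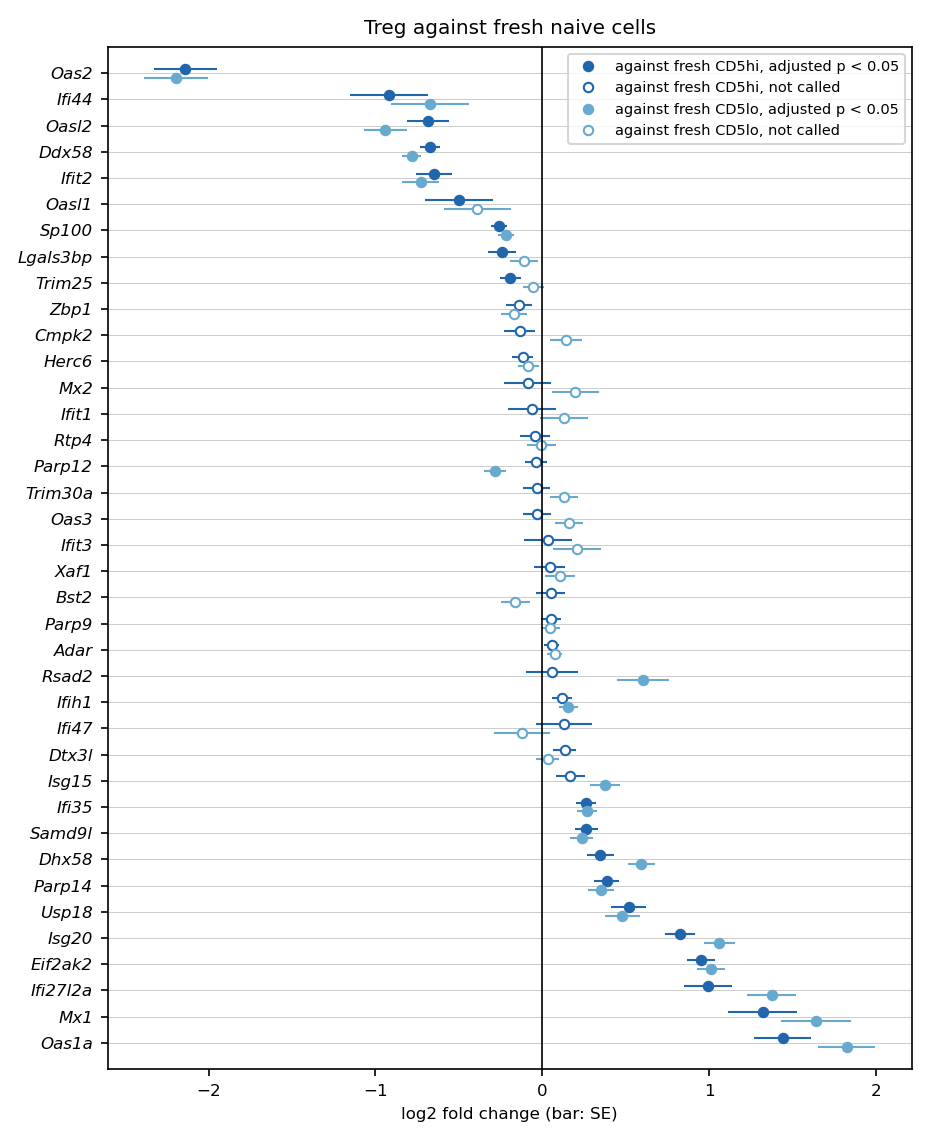
Points give the log2 fold change of Treg over fresh CD5hi (dark) and over fresh CD5lo (light) cells for each member, bars give the SE, and filled points passed an adjusted p of 0.05. Oas1a and Mx1 lie farthest right and Oas2 farthest left, with most members near 0.

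In Treg 3 of 4 libraries carried Xist and all fresh libraries Y-linked reads. The libraries that have Y-linked reads leave 1 Treg library, so only effect sizes are given for them. The median member change among them was 0.06 against fresh CD5hi and 0.07 against fresh CD5lo cells. Against CD5lo cells Ifih1 then changed by 0.12 and Parp12 by -0.27. In a fit with a term for libraries with Xist, 12 members were higher and 9 lower against CD5hi, and 12 and 8 against CD5lo cells. Of all 13309 genes, 3594 were higher and 3472 lower against CD5hi, and 3770 and 3767 against CD5lo cells. Isg15 (0.28) and Ifi47 (0.46) then passed as higher against CD5hi cells. Against CD5lo cells Lgals3bp passed as lower (-0.32), and Ifih1 lost its call (0.11). The monocyte and macrophage markers summed to 43.0 to 46.5 CPM in Treg, against 12.7 to 15.3 CPM in fresh CD5hi and 13.2 to 17.5 CPM in fresh CD5lo libraries. In Treg 36.5 CPM of that sum came from Cybb, and Csf1r averaged 1.54 CPM in Treg against 3.21 and 4.42 CPM in fresh CD5hi and CD5lo cells. The 8 B cell markers summed to 24.7 to 27.0 CPM in Treg and to at most 6.28 CPM in fresh libraries. The 5 NK cell markers summed to 2.15 to 2.75 CPM in Treg and to at most 0.35 CPM in fresh libraries, nearly all of it Klrb1c, and Klra4 was at 0 in all Treg libraries. The 8 dendritic cell markers summed to 1.82 to 2.54 CPM in Treg, against 0.879 to 1.10 CPM in fresh CD5hi and 0.709 to 1.53 CPM in fresh CD5lo libraries, and none was at 0 in all Treg libraries. The 8 erythroid and platelet markers went the other way, at 4.51 to 35.3 CPM in Treg, against 36.4 to 79.9 CPM in fresh CD5hi and 56.9 to 117 CPM in fresh CD5lo libraries. The CD8 T cell markers summed to 13.7 to 15.9 CPM in Treg, above fresh CD5hi and below fresh CD5lo libraries. Their part in the differences was not tested.

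The receptor and the transcription factors of the pathway did not move as one. Irf7, the factor that amplifies interferon production and is itself interferon-induced, had 27.0, 28.7, 30.7 and 27.3 CPM in rested and 149, 142, 129 and 129.6 CPM in fresh CD5hi libraries (log2 fold change -2.27, SE 0.07). In CD5lo libraries Irf7 had 29.3, 28.3, 32.5 and 33.0 CPM when rested and 134, 129, 126 and 127 CPM when fresh (log2 fold change -2.07, SE 0.07), and rested and fresh libraries lay far apart in both CD5 groups. Irf9 changed by -0.99 (SE 0.04) in CD5hi and -0.95 (SE 0.04) in CD5lo cells, Irf1 by -0.60 (SE 0.09) and -0.68 (SE 0.09), and Stat2 by -0.27 (SE 0.06) and -0.31 (SE 0.06). Of the receptor chains, Ifnar2 fell (log2 fold changes -0.52, SE 0.05, and -0.45, SE 0.05). Ifnar1 was not called (log2 fold changes -0.04, SE 0.05, and -0.01, SE 0.05), at 203 ± 12.4 CPM in rested and 209.8 ± 7.30 CPM in fresh CD5hi cells.

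Ifnar2 was higher in fresh CD5hi cells (log2 fold change 0.22, SE 0.05), and Ifnar1 was lower in rested CD5hi cells (log2 fold change -0.17, SE 0.05, edgeR adjusted p = 0.029), a call that was lost without rested CD5hi replicate 2 or 3 or rested CD5lo replicate 1 or 2 (adjusted p of 0.071 to 0.076). In Treg, Ifnar1 (0.50 against fresh CD5hi and 0.36 against fresh CD5lo), Ifnar2 (0.50 and 0.72), Stat2 (0.37 and 0.40) and Irf9 (0.20 and 0.18) were higher, and Irf7 was lower (-0.42 and -0.33). With a term for libraries with Xist, Irf9 lost its call against fresh CD5lo cells (log2 fold change 0.11, edgeR adjusted p = 0.0598).

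**Figure D5:**
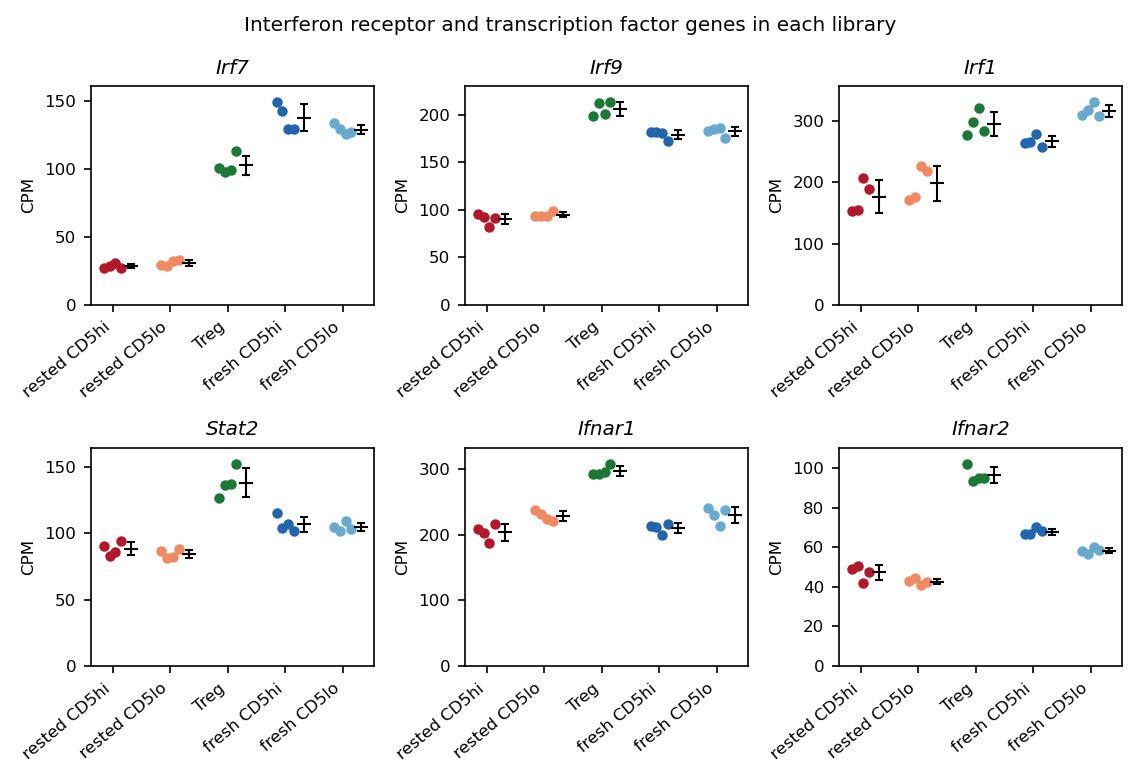
Each point is a library and each panel a gene, with CPM on a linear axis from 0, and black bars give mean and SD (n = 4). Irf7 is low in both rested groups, Irf9 and Irf1 less so, and Ifnar1 is at about the same level in rested and fresh naive cells.

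Other parts of the pathway were counted by list. Of 11 genes of the interferon receptors and JAK-STAT signalling, 2 rose and 6 fell on resting in each CD5 group. Among all tested genes, 26.2% rose and 26.2% fell in CD5hi cells, and 26.9% rose and 27.3% fell in CD5lo cells, and the list counts here and in the paragraphs that follow stand beside these shares. The risers included Ifngr1, a chain of the receptor for interferon-gamma, at 270.1 ± 15.7 CPM in rested and 91.5 ± 12.2 CPM in fresh CD5hi cells (log2 fold change 1.56, SE 0.09, and 1.78, SE 0.09 in CD5lo cells). Of 13 negative regulators of type I signalling, 7 rose and 4 fell in CD5hi cells, and 6 rose and 5 fell in CD5lo cells. Socs1, which inhibits JAK kinases, rose to 82.9 ± 8.36 CPM in rested CD5hi cells, against 27.2 ± 3.52 CPM in fresh ones (log2 fold change 1.61, SE 0.10, and 1.64, SE 0.10 in CD5lo cells). Samhd1, which degrades deoxynucleotides, rose too (log2 fold changes 0.89, SE 0.07, and 1.12, SE 0.07). Of 8 interferon regulatory factors, 2 rose and 4 fell in each CD5 group, with Irf8 at 1.13 CPM in rested and 5.02 CPM in fresh CD5hi cells. The 2 risers of 8 and, among the negative regulators, the 4 fallers of 13 in CD5hi cells lie near the shares of all genes. Of 13 genes of upstream sensing, 1 rose and 9 fell in CD5hi cells, and 2 rose and 7 fell in CD5lo cells, among them the single-stranded RNA receptor gene Tlr7 (log2 fold changes -0.83, SE 0.15, and -1.06, SE 0.16).

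Of 53 further interferon-stimulated genes tested, 6 rose and 33 fell on resting in CD5hi cells and 7 rose and 32 fell in CD5lo cells, and the median change was -0.52 in CD5hi and -0.53 in CD5lo cells. Apol9a and Apol9b, near-identical apolipoprotein L genes that can share reads, were lost almost completely. Apol9a was at 0 in all 8 rested libraries, against 2.11, 2.89, 3.19 and 2.66 CPM in fresh CD5hi and 0.851, 1.36, 1.21 and 1.24 CPM in fresh CD5lo libraries. Taking 3 counts in the shallowest rested library as the floor, it was at least 34.1-fold lower in rested than in fresh CD5hi cells and at least 15.8-fold lower in rested than in fresh CD5lo cells. Apol9b had 4 counts in all in rested CD5hi libraries and 0 in rested CD5lo libraries, against 7.34, 6.94, 8.00 and 9.99 CPM in fresh CD5hi and 1.17, 1.84, 1.62 and 1.5 CPM in fresh CD5lo libraries. It was higher in fresh CD5hi than in fresh CD5lo cells (log2 fold change 2.40, SE 0.16, edgeR adjusted p = 2.89e-09) and highest in Treg, at 30.1, 29.6, 28.3 and 29.6 CPM.

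The guanylate-binding and immunity-related GTPases respond to interferon-gamma as well as to type I interferon. Of 16 such genes, Ifi47 among them, 4 rose and 9 fell on resting in CD5hi cells and 3 rose and 8 fell in CD5lo cells. They moved apart from each other. Gbp10, which may share reads with its close copy Gbp6, averaged 1.81 ± 0.323 CPM in rested and 17.5 ± 2.35 CPM in fresh CD5hi cells (log2 fold change -3.28, SE 0.13, and -3.53, SE 0.13 in CD5lo cells). Gbp11 rose to 106 ± 11.8 CPM in rested CD5hi cells, against 7.98 ± 1.19 CPM in fresh ones (log2 fold change 3.73, SE 0.12, and 3.02, SE 0.12 in CD5lo cells). In fresh CD5hi cells 11 of the 16 were lower than in fresh CD5lo cells, and in rested CD5hi cells 7 were lower than in rested CD5lo cells, beside 4.59% and 3.46% of all genes. None of the 16 was called as higher in either comparison. Iigp1 had 48.5, 58.9, 56.9 and 40.7 CPM in fresh CD5hi and 89.8, 109, 117 and 83.7 CPM in fresh CD5lo libraries (log2 fold change -0.97, SE 0.26), and 14.8, 14.1, 33.6 and 29.2 CPM in rested CD5hi and 39.9, 40.5, 80.0 and 87.7 CPM in rested CD5lo libraries (log2 fold change -1.44, SE 0.27). In Treg 11 were higher and 1 lower than in fresh CD5hi cells, beside 27.5% and 26.6% of all genes, and 8 were higher and 3 lower than in fresh CD5lo cells, beside 29.2% and 29.4%. In the first of these comparisons Gbp3 was at 121 ± 9.21 CPM in Treg against 10.0 ± 0.601 CPM in fresh CD5hi cells (log2 fold change 3.59, SE 0.17).

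In Treg, 24 of the 53 further genes were higher and 14 lower than in fresh CD5lo cells, and 23 were higher and 10 lower than in fresh CD5hi cells. Of all genes, 29.2% were higher and 29.4% lower against CD5lo and 27.5% and 26.6% against CD5hi cells, so that the 14 lower genes of 53 lie near the share of all genes. The chemokine gene Cxcl10 averaged 4.10 ± 0.270 CPM in Treg, against 0.205 ± 0.118 CPM in fresh CD5hi and 0.138 ± 0.112 CPM in fresh CD5lo cells (log2 fold changes 4.34, SE 0.42, and 4.87, SE 0.44). Irf8, which is also known as a factor of myeloid and B cells, averaged 29.3 ± 0.882 CPM in Treg, against 5.02 ± 0.137 CPM in fresh CD5hi and 5.44 ± 0.393 CPM in fresh CD5lo cells (log2 fold changes 2.54, SE 0.16, and 2.43, SE 0.16). Irf5 averaged 30.1 ± 1.71 CPM in Treg, against 1.89 ± 0.103 CPM in fresh CD5hi and 1.41 ± 0.221 CPM in fresh CD5lo cells (log2 fold changes 3.99, SE 0.12, and 4.41, SE 0.13). Tlr7 averaged 55.0 ± 2.89 CPM in Treg and 14.9 ± 0.711 and 9.79 ± 0.895 CPM in fresh CD5hi and CD5lo cells. The monocyte, macrophage and B cell sums given above were also highest in Treg. Most of the monocyte and macrophage sum in Treg was Cybb, and Csf1r was lower in Treg than in fresh cells. The part of other cell types in the levels of Irf8, Irf5 and Tlr7 was not tested.

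Few reads of the type I ligands were found. The 16 type I interferon symbols together had 4 to 22 counts per library in rested CD5hi, 4 to 16 in rested CD5lo, 4 to 12 in Treg, 14 to 16 in fresh CD5hi and 11 to 24 in fresh CD5lo cells. Most of these counts lay in Ifnz, with 193 over the 20 libraries, and Ifnb1 had 0 in all. A count of 0 allows up to 3 counts, which is 0.0499 to 0.0795 CPM per library. Such limits cover counting error only, and 62.3 to 66.2% of the counts from 1 to 10 per library were even. Whether mates of a pair were counted apart is not stated in the sources at hand. Ifng, the gene of interferon-gamma, averaged 1.30 ± 0.398 CPM in Treg, against 0.131 ± 0.101 CPM in fresh CD5hi and 0.0561 ± 0.0495 CPM in fresh CD5lo cells.

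The ISRE letters were found in the promoter windows of a larger share of members than of all genes. Within the 300 bases from 250 before to 50 after a start, 11 of the 28 members with a window held GAAANNGAAA on either strand (39.3%), against 3.99% of 27025 genes. These were Ifit1, Ifit3, Isg15, Oas1a, Oas3, Rsad2, Ddx58, Ifih1, Eif2ak2, Bst2 and Trim30a. The palindromic letters TTCNNNGAA of a gamma-activated sequence (GAS), the element of the interferon-gamma response, were found in 7 of the 28 (25.0%), against 9.55% of genes, and in 1 window the matches of both overlapped. No window was given for Ifi27l2a, Rtp4, Mx1, Mx2, Parp9, Parp14, Oas2, Dhx58, Usp18 and Zbp1. The 11 members with the ISRE letters all fell on resting, with a median log2 fold change of -1.45 in CD5hi and -1.30 in CD5lo cells. Of the 17 without them 13 fell in each CD5 group, with medians of -0.86 and -0.75. Over all tested genes with a window, 39.1% of the 343 with the letters and 25.9% of the 8907 without were called as lower in rested CD5hi cells, and 38.5% and 27.0% in rested CD5lo cells. Those shares describe the windows, with no test.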

How the data were processed

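The deposited table holds raw whole-number counts of reads per gene symbol for 20 libraries. Per the submitters' processing notes, the authors aligned reads with TopHat2 2.0.11 to mm9 and counted them with featureCounts 1.4.5 of Subread, and the notes also name edgeR. Neither the gene annotation nor a strand setting is given here, so reads from overlapping antisense genes cannot be told apart. Per the labels' protocols, libraries were made with a TruSeq mRNA kit and sequenced as 50-cycle paired-end reads. Groups were taken from the titles, since the cell type field of the CD5hi and Treg libraries opens with CD5lo. Depth was 38211406 to 64477566 counts per library, and intervals or limits from counts cover counting error only. No column was left without a sample.

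Counts were filtered with edgeR's filterByExpr, scaled by TMM and fitted over all 5 groups by edgeR 4.0.16's quasi-likelihood model (R 4.3.3, limma 3.58.1), with 15 residual degrees of freedom. P-values were adjusted by Benjamini-Hochberg over 13309 genes within each comparison, called at 0.05, and measure the spread between libraries called biological replicates. That spread is taken over all 5 groups together and is not that of the compared groups alone. Over the members, the median SD of log2 CPM was 0.16 in rested CD5hi and 0.16 in rested CD5lo libraries. It was 0.12 in Treg, 0.10 in fresh CD5hi and 0.09 in fresh CD5lo libraries. Fold changes are those of the fitted model at its default settings, and levels on the log2 CPM scale use a prior count of 2. In CD5hi and CD5lo libraries of the same number and state, deviations from the group means correlated at 0.16 to 0.299 (fresh) and 0.189 to 0.517 (rested), past the limit of 0.1, so that a block by number was run beside the unblocked test. No other pair of groups passed that limit.

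Alternatives were DESeq2 1.42.0, its size factors, other filters, the compared groups alone, replicate blocks, each library left out, a term for libraries with Xist, libraries with Y-linked reads alone, and rested replicates 1 and 2 or 3 and 4 alone. In counts simulated for rested against fresh CD5hi cells, 67 of 13044 genes were changed by 2-fold and 85.1% of the 67 were recovered. In counts simulated for fresh CD5hi against CD5lo cells, 68.7% of 67 genes changed by 2-fold were recovered among 13052, and 71.6% of 67 changed by 1.5-fold. Far fewer genes were changed in these counts than were called in the data, so the shares do not carry over to it. Members, lists and these choices were made with earlier results of these data known. Values in every library are given for up to 6 called members with the largest rise and 6 with the largest fall per comparison, among those of at least 1 CPM in 1 of the groups. Up to 2 called genes per pathway list and comparison are named by size of change, beside Ifnar1, Ifnar2, Stat2, Irf1, Irf7 and Irf9. A further gene that this rule names is not reported here.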

Additional observations from a re-analysis of the deposited data

Results flagged for a closer look

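Of 190 groups of 4 libraries, 1 for each member and group, 6 held a library whose gap to the nearest other one relative to the group's range, exceeded Dixon's 95% critical value for 4 samples. Chance gives about 1 such group in 20. Ifit1 had 10.7 CPM in rested CD5hi replicate 3, against 7.44 to 7.90 CPM in the other rested CD5hi libraries. Isg15 had 5.13 CPM in rested CD5lo replicate 3, against 4.64 to 4.72 CPM in the others. Ifi27l2a had 122 CPM in rested CD5hi replicate 3, against 71.2 to 73.3 CPM in the others. All of these came from rested replicate 3, which is also the rested library with Y-linked reads. Parp14 had 318 CPM in fresh CD5lo replicate 3, against 263 to 270.0 CPM in the others. Trim30a had 244 CPM in fresh CD5hi replicate 1, against 194 to 203 CPM in the others. Sp100 had 547 CPM in fresh CD5hi replicate 4, against 569 to 572 CPM in the others. Dhx58 differed between CD5hi and CD5lo cells in its change on resting, by the test of the difference itself (log2 difference -0.62, edgeR adjusted p = 0.0136).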

How the results depend on the processing

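The number of members called on resting was 35 in both CD5 groups, and it stayed within 1.5 times that number under every alternative tried, with 35 to 35 in CD5hi and 33 to 35 in CD5lo cells when single libraries were left out. With single libraries left out it was 17 to 20 for Treg against fresh CD5hi, 18 to 22 for Treg against fresh CD5lo, 2 to 7 for rested CD5hi against rested CD5lo, 0 to 3 for fresh CD5hi against fresh CD5lo, and 1 to 2 for the difference of the resting changes. Of all 13309 genes, 6294 to 6875 were then called on resting in CD5hi and 6317 to 7307 in CD5lo cells. For the other comparisons in the order above, 6569 to 6802, 7189 to 7488, 828 to 1473, 1230 to 1341 and 36 to 85 of all genes were called.

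For fresh CD5hi against fresh CD5lo, 2 members became 4 with a filter of 1 CPM, 8 with these groups alone, 4 by DESeq2 and 17 with the replicate block within states. In the same order, the 1524 of all 13309 genes became 1531 of 11597, and 2188, 1756 and 2780 of 13309. For rested CD5hi against rested CD5lo, 4 became 0 with these groups alone, 2 with rested replicates 1 and 2 alone, and 14 with the block. Those 2 were Ifit2 and Zbp1, and none of the 4 calls was kept in that set. Over all 13309 genes, the 1092 called became 483, 903 and 2402 in the same order. For the difference of the resting changes, 1 became 3 with the block, 2 with rested replicates 1 and 2 alone, and 0 with replicates 3 and 4 alone. There the 60 of all genes became 357, 84 and 40. The sets with 2 rested replicates hold fewer libraries, and the other causes were not tested. The set with Y-linked libraries alone leaves 1 library in each rested group, and its counts are left out of this paragraph. A block by replicate number across all groups left 35 and 35 members called on resting and 19 and 21 in Treg, against fresh CD5hi and fresh CD5lo, and it moved no member count past 1.5 times. With it, 7155 and 7410 of all genes were called on resting and 7404 and 7990 in Treg.

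Over all members and named pathway genes, 5313 values kept direction and side of the threshold, 77 lost a call, 113 gained one, and 1 that was called reversed. A further 172 values, of 70 results, turned their sign with no call in either fit, among them Ifi47 on resting in both CD5 groups. The called reversal was Ifit2 in rested against fresh CD5hi cells, at -0.14 with rested replicates 1 and 2 alone and 0.13 with all. Rested groups differ from fresh ones also by culture time and interleukin 7, and sex-linked reads follow state. The 16 type I interferon symbols had at most 24 counts per library.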
